A study of Homo sapiens with 12 samples.

Results

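The 10 small nucleolar RNA host transcripts were followed across the series: GAS5, SNHG1, SNHG5, SNHG6, SNHG7, SNHG8, SNHG12, SNHG15, SNHG16 and ZFAS1. They are the 10 rows, of 50868 in the count table, that carry these gene names, and all 10 passed the filter on low counts that left 17717 genes for testing. RNA was sequenced from MG63, an established human osteosarcoma cell line, in 12 libraries of 4 groups. Of these, 3 libraries were from cells given vehicle and 3 from cells given 1 µM of the compound anticarin-beta, all 6 collected at 18 hours. In the other 6, cells had been transfected with the Allstar control siRNA (3 libraries) or with an siRNA specific for CCT4 (3 libraries) and were collected at 2 days. Every group is the same line, with no genetic change named in the labels, so the data describe 1 cell line. Separate cultures are not stated for the replicates, so each p-value measures the spread between these libraries, which may be technical.

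Levels are CPM, counts of a gene brought to a common library size with edgeR's TMM method, and adjusted p-values are from edgeR's quasi-likelihood test, Benjamini-Hochberg adjusted across all 17717 genes and called under 0.05. Log2 fold changes are given with their standard error (SE). Library totals lay between 13393750 and 17492095 counts. The TMM factor was 1.067 to 1.098 in the vehicle libraries and 0.804 to 0.810 with anticarin-beta, a gap that bears on small changes in that comparison. The lineage markers COL1A1 (500 to 5240 CPM), COL1A2 (305 to 1890 CPM) and SPARC (702 to 4550 CPM) were high, whereas SPP1, SP7 and POSTN had 8, 11 and 36 counts in all 12 libraries together. Summed over 10 osteoblast-lineage markers, the level was 6560 to 8130 CPM with vehicle, 11300 to 11700 CPM with anticarin-beta, 1600 to 1640 CPM with control siRNA and 2030 to 2170 CPM in the libraries labelled CCT4 siRNA. Most of that sum came from COL1A1, COL1A2 and SPARC, and single markers did not all follow it. Of 7 tested, 5 were higher and 1 lower with anticarin-beta (34.9% and 38.0% of all tested genes), and CDH11 went down (log2 −1.37). With control siRNA against vehicle 1 was higher and 4 lower (24.8% and 23.6% of all tested genes), and ALPL went up (log2 0.98). Summed over 11 markers of other cell types the level lay between 48.6 and 74.1 CPM, most of it from KRT8 (37.5 to 55.6 CPM), with CD3E, LYZ and HBB at 0 counts. Of the 5 such markers tested, 2 were higher (VWF, log2 1.97, and CD14, log2 0.58) and 1 lower (PECAM1, log2 −1.03) with anticarin-beta, and PECAM1 was at 4.52 CPM with vehicle and 12.9 CPM with control siRNA (log2 1.51). The part of these marker shifts in the host transcript results was not tested, and in bulk RNA a change in the number of cells of a type and a change in RNA per cell cannot be told apart.

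CCT4, the gene the siRNA targets, encodes a subunit of the cytosolic chaperonin. Its level was 257.9, 237.8 and 212.3 CPM with vehicle and 86.8, 87.5 and 72.5 CPM with anticarin-beta. It was 185.6, 160.2 and 184.6 CPM with control siRNA and 201.4, 199.6 and 216.3 CPM in the libraries labelled CCT4 siRNA. All 3 of the labelled libraries therefore lay above all 3 controls (log2 0.22 ± 0.09, adjusted p = 0.129). Since the targeted mRNA was not lower, those libraries are named here by their label only.

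Small nucleolar RNAs (snoRNAs) guide chemical modification of ribosomal RNA and are mostly cut out of introns of host genes. The spliced host RNA that remains often has short reading frames that stop well upstream of later exon junctions, and many such RNAs are destroyed by nonsense-mediated decay (NMD), a pathway that acts when ribosomes translate the RNA. For that reason several host RNAs are known to accumulate when translation is blocked. Many of them also start with a C followed by a run of pyrimidines, as do mRNAs of ribosomal proteins, a start that couples translation to growth signalling. The count table has rows for the host RNAs, but 0 of 26 snoRNA entries annotated within the members had a row of their own. Some snoRNAs, such as SNORA17B, have several entries, and GAS5 has 0 in the annotation used. Of 37 snoRNAs of the members listed by name, 0 were found in the count table. The snoRNAs were therefore not analysed here. Some of them overlap annotated exons of the host, such as SNORA24 in SNHG8 by 131 bases. Others do not, such as SNORD12C in ZFAS1. How far reads of snoRNAs were counted to the hosts was not tested.

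The reading frames of the host RNAs can be described from the GENCODE 29 annotation (GRCh38), taking for each gene the basic transcript with the most exons. In 9 of 10 the frame opened by the first ATG stopped more than 50 bases before the last exon junction, the layout commonly linked to NMD. In SNHG8 that stop lay 1 base before the last junction. Choosing the transcript with the most exons favours this layout, and its share among other non-coding RNAs was not computed. The first frame ran from 4 codons in SNHG6 to 117 codons in ZFAS1. In GAS5 it had 59 codons and 9 junctions followed its stop, against 67 codons and 3 junctions in SNHG7. The 2 host RNAs that moved most with anticarin-beta, SNHG7 downward and ZFAS1 upward, thus both had a first stop more than 50 bases upstream of the last junction, at 206 and 354 bases.

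Start regions of the host genes are printed so that members with opposite responses can be compared by eye. Windows run from 40 bases before to 20 bases after the RefSeq start (GRCh38.p14), 5′ to 3′ on the gene's strand, and 8 of 10 members had an entry, SNHG6 and SNHG15 being the others. Capitals mark TATAA 40 to 15 bases before the start, and the run nearest the start that opens with C and goes on with at least 4 bases that are each C or T. The 4 members called between anticarin-beta and vehicle were these.
SNHG7, chr9:136728165-136728224, minus strand: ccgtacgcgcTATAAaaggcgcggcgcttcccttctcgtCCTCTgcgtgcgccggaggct
ZFAS1, chr20:49278602-49278661, plus strand: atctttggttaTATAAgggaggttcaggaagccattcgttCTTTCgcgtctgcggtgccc
SNHG8, chr4:118278722-118278781, plus strand: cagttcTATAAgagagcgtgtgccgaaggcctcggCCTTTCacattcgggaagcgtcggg
SNHG12, chr1:28581854-28581913, minus strand: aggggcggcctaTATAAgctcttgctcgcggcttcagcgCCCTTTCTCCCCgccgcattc
The other 4 with an entry, of which SNHG5 and SNHG1 were called in the libraries labelled CCT4 siRNA, were these.
SNHG5, chr6:85678714-85678773, minus strand: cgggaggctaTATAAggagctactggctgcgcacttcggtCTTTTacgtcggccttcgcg
SNHG1, chr11:62855866-62855925, minus strand: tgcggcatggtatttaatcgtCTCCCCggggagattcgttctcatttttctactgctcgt
GAS5, chr1:173869026-173869085, minus strand: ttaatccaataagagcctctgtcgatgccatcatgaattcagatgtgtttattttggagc
SNHG16, chr17:76557724-76557783, plus strand: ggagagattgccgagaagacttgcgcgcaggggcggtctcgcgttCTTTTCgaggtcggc

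A run of this kind within 20 bases of the start was present in 7 of 8 members, all but GAS5, and in 47.9% of 35116 RefSeq promoters searched in the same way on the gene's strand. Its first base lay within 5 bases of the start in 6 of 8 members and in 18.1% of promoters, SNHG1 being the other member with a run. TATAA stood 40 to 15 bases before the start in SNHG5, SNHG7, SNHG8, SNHG12 and ZFAS1, 5 of 8 members against 3.91% of promoters. Both motifs were chosen after the sequences had been seen, and a match is a description of letters. SNHG7, which fell with the compound, and ZFAS1, which rose, both had TATAA and a run opening within 5 bases of the start. RefSeq and GENCODE place some starts differently: the RefSeq start minus the GENCODE start is −163 bases in GAS5, 464 bases in ZFAS1, 1259 bases in SNHG12 and 53 bases in SNHG8. In each of these members the printed window therefore does not contain the GENCODE start. GAS5 is the 1 member without a run, and ZFAS1, SNHG12 and SNHG8 are counted above with both motifs.

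With vehicle, the host RNAs differed widely in level per kilobase of annotated exon. SNHG6 was highest at 72.4 CPM per kilobase, followed by ZFAS1 at 50.1, SNHG5 at 34.5, GAS5 at 24.0 and SNHG8 at 23.4 CPM per kilobase. SNHG1 followed at 12.3, SNHG16 at 9.03, SNHG7 at 6.89, SNHG15 at 3.71 and SNHG12 at 3.31 CPM per kilobase. The first 3 did not overlap with their neighbours in this order, whereas GAS5 and SNHG8, SNHG1 and SNHG16, SNHG16 and SNHG7, and SNHG15 and SNHG12 overlapped over the 3 libraries. The length used is the union of all annotated exons, which is longer than a spliced transcript by unequal amounts. It was 3631 bases in GAS5 and 2243 in ZFAS1, where the transcripts described above have 723 and 1075 bases. The order of the members therefore depends on the length chosen. Summed over the 10 genes, the level was 560.5 ± 8.78 CPM with vehicle, 715.2 ± 91.3 CPM with anticarin-beta, 744.7 ± 22.4 CPM with control siRNA and 722.8 ± 25.0 CPM in the libraries labelled CCT4 siRNA (SD, n = 3 each). The large SD with anticarin-beta goes with SNHG16, whose level in 1 library is described below.

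**Figure D1:**
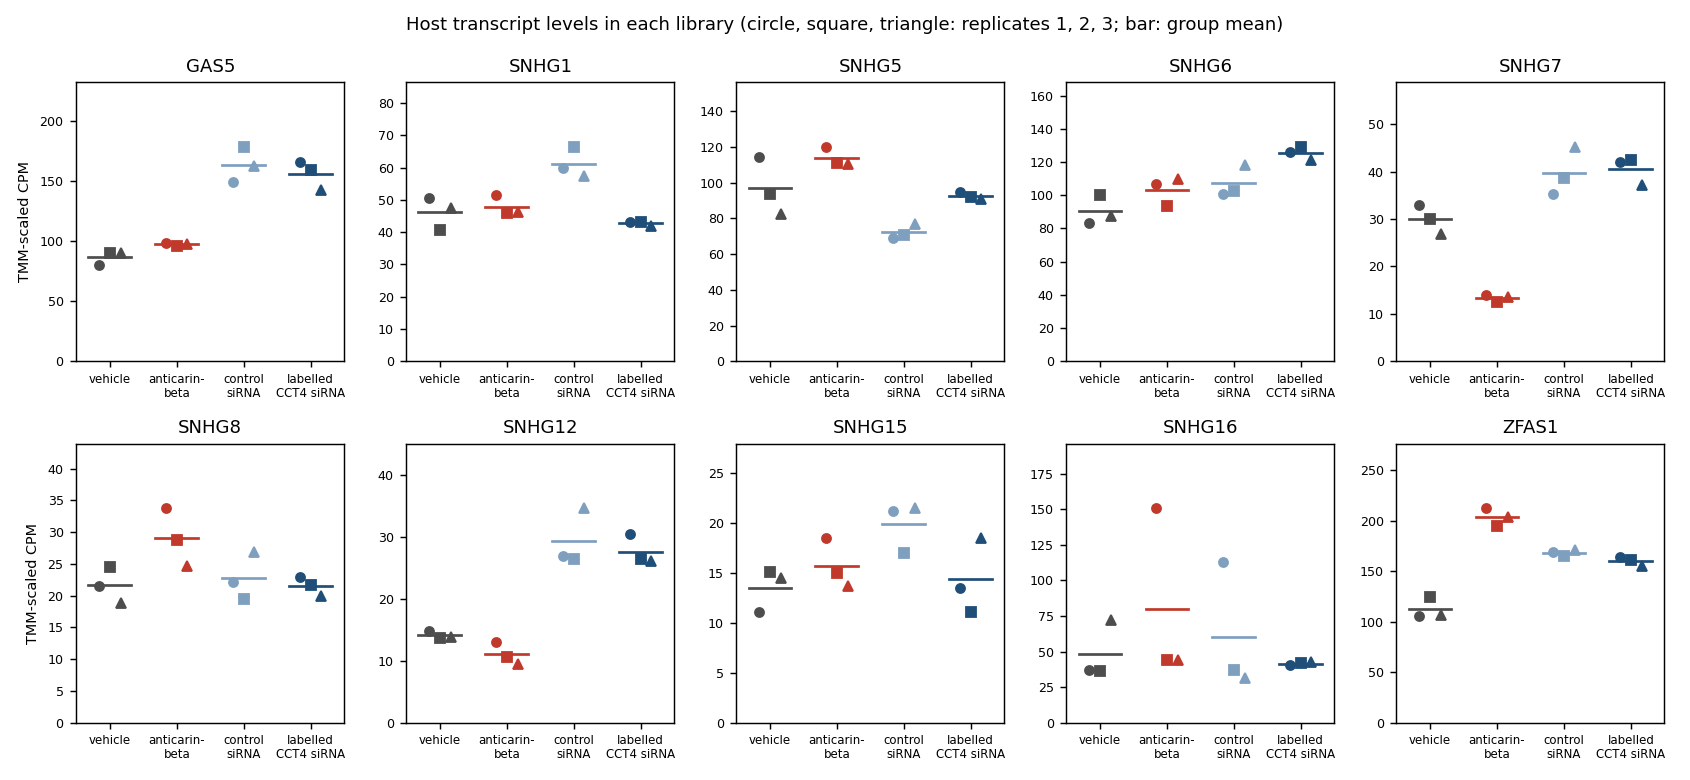
TMM-scaled CPM (vertical axis, starting at 0) of each of the 10 host transcripts in all 12 libraries, with circles, squares and triangles for replicates 1, 2 and 3 and a bar for the group mean. SNHG7 is low in all 3 anticarin-beta libraries (12.5 to 14.0 CPM), ZFAS1 is lowest in the vehicle libraries (105.5 to 124.1 CPM), and SNHG16 has 1 high library in 3 of the 4 groups.

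Anticarin-beta did not move the host transcripts in 1 direction. SNHG7 fell and ZFAS1 rose by clear margins, SNHG8 rose and SNHG12 fell by small ones, and the other 6 were not called. Thus 4 of 10 members were called, 2 higher and 2 lower, where 73.0% of all tested genes were called (34.9% higher and 38.0% lower). The median log2 change over the 10 was 0.21, beside −0.06 over all genes tested.

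SNHG7, the host of snoRNAs of the SNORA17 family on chromosome 9 (136721366 to 136728184, minus strand, GRCh38), was the member that fell most. Its counts were 618, 498 and 503 in the vehicle libraries and 167, 135 and 161 with anticarin-beta. In TMM-scaled CPM these were 32.9, 30.0 and 26.9 against 14.0, 12.5 and 13.5. Every anticarin-beta library lay below every vehicle library. The mean of 3 libraries went from 29.95 ± 3.02 (SD) to 13.3 ± 0.776 CPM, a 2.25-fold fall with a log2 change of −1.17 ± 0.12 (SE; edgeR adjusted p = 1.25e-06). With library totals alone as the scale the log2 change was −1.59.

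Of the annotated exon bases of SNHG7, 25.18% are also exon of FAM69B, a protein-coding gene on the opposite strand. FAM69B encodes a kinase-like protein of the endoplasmic reticulum. Its level was 19.6, 20.9 and 22.6 CPM with vehicle and 3.77, 3.60 and 4.85 CPM with anticarin-beta, 5.15-fold lower (log2 −2.36 ± 0.14, adjusted p = 7.5e-09). FAM69B was 26.3, 24.7 and 21.7 CPM with control siRNA and 28.6, 26.4 and 23.7 CPM in the libraries labelled CCT4 siRNA, with no call (log2 0.12, adjusted p = 0.542). A stranded kit was used, but whether strand entered the counting is unknown here, so how far reads of the 2 genes were kept apart cannot be told. The fall of SNHG7 is uncertain to that extent.

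ZFAS1, the host of the SNORD12 snoRNAs on chromosome 20 (49278178 to 49295738, plus strand, GRCh38), was the member that rose most. It stood at 105.5, 124.1 and 107.2 CPM with vehicle and at 212.7, 194.6 and 203.9 CPM with anticarin-beta. The 2 groups were far apart, the lowest treated library being above the highest vehicle library. The mean rose from 112.3 ± 10.2 to 203.7 ± 9.02 CPM (SD, n = 3 each), 1.81-fold (log2 0.86 ± 0.07, adjusted p = 2.24e-07). Under library totals alone the log2 change was 0.44 (adjusted p = 7.02e-05).

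ZFAS1 lies head to head with ZNFX1, which encodes a zinc finger helicase linked to antiviral defence. Their annotated starts are 248 bases apart, and the 5′ ends overlap rather than leaving a gap. ZNFX1 shares 11.1% of the annotated exon bases of ZFAS1 (249 bases), from the opposite strand. ZNFX1 was also higher with anticarin-beta, at 347.1 against 221.6 CPM (log2 0.65 ± 0.08, adjusted p = 1.02e-05). Where cells carried the labelled CCT4 siRNA, ZNFX1 fell from 360.6 to 224.8 CPM (log2 −0.68 ± 0.08, adjusted p = 1.8e-04), while ZFAS1 was at 160.4 CPM against 168.4 CPM and not called (log2 −0.07 ± 0.07, adjusted p = 0.541). With control siRNA against vehicle ZNFX1 was higher (360.6 against 221.6 CPM, log2 0.70 ± 0.08, adjusted p = 1.4e-05), as was ZFAS1 (log2 0.59). ZFAS1 and its neighbour were thus called in the same direction with the compound and between the 2 control groups. In the libraries labelled CCT4 siRNA, ZNFX1 was called without ZFAS1.

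**Figure D2:**
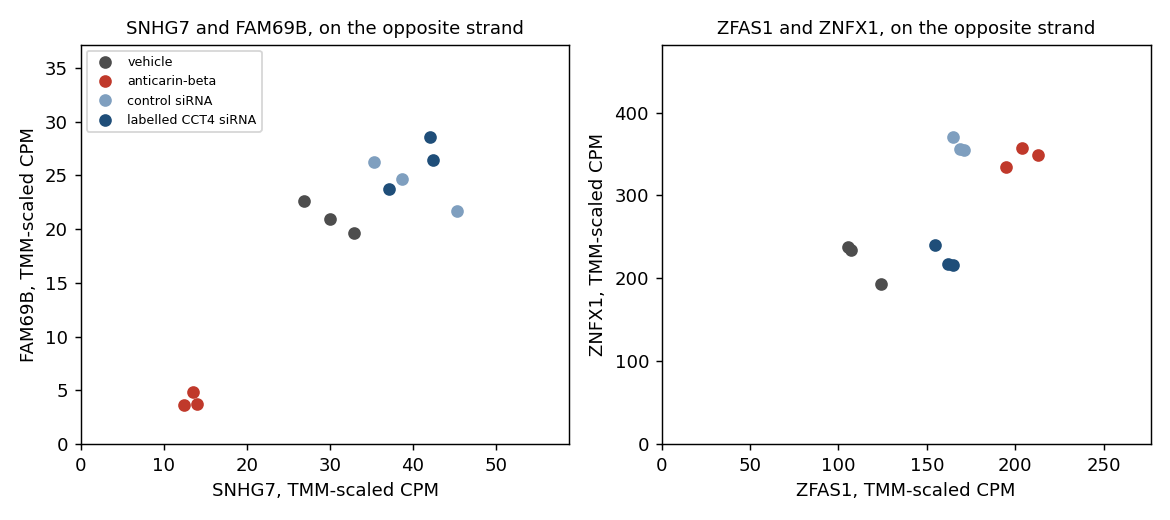
Each point is 1 library, coloured by group; the left panel sets SNHG7 (horizontal axis, TMM-scaled CPM) against FAM69B (vertical axis, TMM-scaled CPM) and the right panel ZFAS1 against ZNFX1 in the same units. The 3 anticarin-beta libraries are low for both SNHG7 and FAM69B, and the libraries labelled CCT4 siRNA (216.5 to 240.3 CPM) lie below the control siRNA libraries (355.4 to 370.7 CPM) for ZNFX1 at similar ZFAS1.

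SNHG8, which hosts the H/ACA snoRNA SNORA24 on chromosome 4 (118278709 to 118279823, plus strand), rose slightly. Its level was 21.5, 24.5 and 18.9 CPM with vehicle and 33.8, 28.7 and 24.7 CPM with anticarin-beta. The lowest treated library was just above the highest vehicle library. The log2 change was 0.43 ± 0.15 (adjusted p = 0.0187), and it fell short of the threshold with upper-quartile scaling (log2 0.31) and with library totals alone (log2 0.01). Without vehicle replicate 3 or anticarin-beta replicate 1 it was not called either, with log2 changes down to 0.30 over all omissions.

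SNHG12, a host of SNORA and SNORD genes on chromosome 1 (28578538 to 28583132, minus strand), was the other member that fell. It was at 14.8, 13.8 and 13.8 CPM with vehicle and at 13.1, 10.6 and 9.46 CPM with anticarin-beta. The groups did not overlap, but the highest treated library came close to the vehicle libraries. The log2 change was −0.35 ± 0.14 (adjusted p = 0.0402). The call was lost under RLE scaling (log2 −0.29, adjusted p = 0.084) and with limma-voom (log2 −0.36, adjusted p = 0.061). It was also lost with DESeq2 (log2 −0.29, adjusted p = 0.101) and with the 2 groups fitted alone (log2 −0.35, adjusted p = 0.0654). The same held when vehicle replicate 1 or 3 or anticarin-beta replicate 2 or 3 was left out.

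GAS5, a host of many C/D-box snoRNAs and a classical example of a host RNA degraded when translated, was at 80.5, 90.6 and 90.4 CPM with vehicle and at 98.8, 95.7 and 97.6 CPM with anticarin-beta. All treated libraries were above all vehicle libraries, with a log2 change of 0.16 ± 0.08 that was not called (adjusted p = 0.105). With GAS5 there were 3 members higher and 2 lower without overlap, where 35.8% and 38.8% of all tested genes were higher and lower without overlap. The 95% interval of the GAS5 fold ran from 0.984 to 1.27.

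SNHG5, the host of the SNORD50 snoRNAs, had a log2 change of 0.23 ± 0.10 (adjusted p = 0.0541), with vehicle libraries from 82.5 to 114.3 CPM and treated ones from 110.5 to 120.2 CPM. SNHG6, which hosts SNORD87, had 0.19 ± 0.09 (adjusted p = 0.073), with ranges of 83.3 to 100.2 and 93.7 to 109.5 CPM. MCMDC2, which shares 29.27% of the annotated exon bases of SNHG6 from the opposite strand, was scarcely expressed, at 2.04 CPM with vehicle and 0.920 CPM with anticarin-beta. SNHG1, a host of SNORD22 and the SNORD25 to SNORD31 series, had 0.05 ± 0.09 (adjusted p = 0.645) and a fold interval of 0.90 to 1.19. SNHG15, which hosts SNORA9, had 0.22 ± 0.19 (adjusted p = 0.325) and a fold interval of 0.868 to 1.56. SNHG5 was called with limma-voom (log2 0.25, adjusted p = 0.0431) and without vehicle replicate 1 (log2 0.36). A filter of 1 CPM in 3 libraries (adjusted p = 0.0388) and a replicate block (adjusted p = 0.0348) also gave that call. SNHG6 was called without vehicle replicate 2 (log2 0.25) or anticarin-beta replicate 2 (log2 0.26). Both SNHG5 and SNHG6 were called under RLE scaling (adjusted p = 0.0189 and 0.0224) and with DESeq2 (adjusted p = 0.0155 and 0.0193). In these 4 the vehicle and treated libraries overlapped, and the intervals limit a rise of SNHG1 more tightly than that of SNHG15.

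SNHG16, the host of SNORD1 snoRNAs on chromosome 17 (76557766 to 76565348, plus strand), gave no stable value. Its counts were 690, 599 and 1353 with vehicle, 1799, 480 and 529 with anticarin-beta, 1765, 580 and 522 with control siRNA, and 617, 660 and 662 in the libraries labelled CCT4 siRNA. Vehicle replicate 3, anticarin-beta replicate 1 and control siRNA replicate 1 stood apart from the other libraries of their groups. Between libraries of 1 group its level differed by up to 3.63-fold. Of the 7707 genes that averaged 20 CPM or more, 97 (1.26%) had a ratio as large. The log2 change was 0.72 ± 0.53 (adjusted p = 0.239), and −0.13 without anticarin-beta replicate 1, so SNHG16 has no direction here. AC015802.6 shares 30.57% of its annotated exon bases from the opposite strand and was not analysed here.

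**Figure D3:**
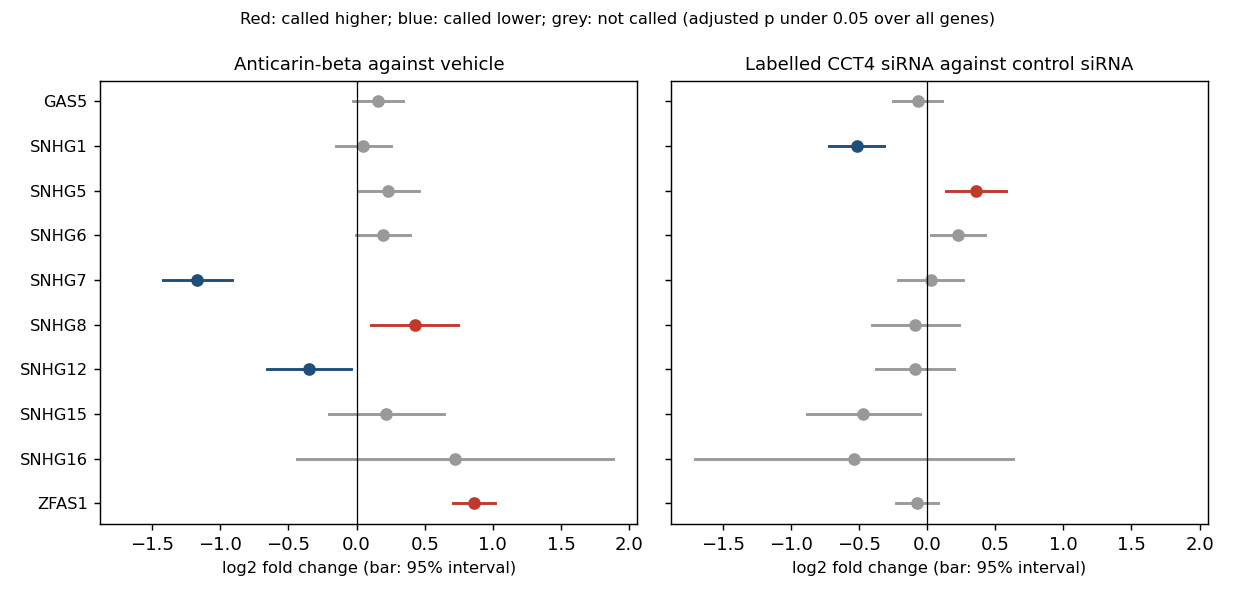
Log2 fold change (horizontal axis) of each host transcript (rows) for anticarin-beta against vehicle (left) and for the libraries labelled CCT4 siRNA against control siRNA (right), with 95% intervals as bars. SNHG7 (−1.17) and ZFAS1 (0.86) stand farthest from 0 on the left among members with narrow intervals; SNHG1 (−0.52) and SNHG5 (0.36) are the 2 called on the right.

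The smaller changes with anticarin-beta depended on how libraries were scaled, and the larger ones did not change direction. Under library totals alone the median of all genes moved from −0.06 to −0.48, with 4292 genes called higher and 8959 lower beside 6186 and 6740 under TMM. On that scale 1 member was called higher and 5 lower, and GAS5 (log2 −0.26, adjusted p = 0.0121), SNHG1 (log2 −0.37, adjusted p = 0.00394) and SNHG6 (log2 −0.22, adjusted p = 0.038) changed sign and were called lower. Under RLE scaling 5 members were called higher and 1 lower, because GAS5, SNHG5 and SNHG6 passed as higher and SNHG12 no longer passed. Under upper-quartile scaling 1 was higher and 2 lower. Relative to the median of all genes, SNHG7 was lower and ZFAS1 higher under all 4 scalings.

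**Figure D4:**
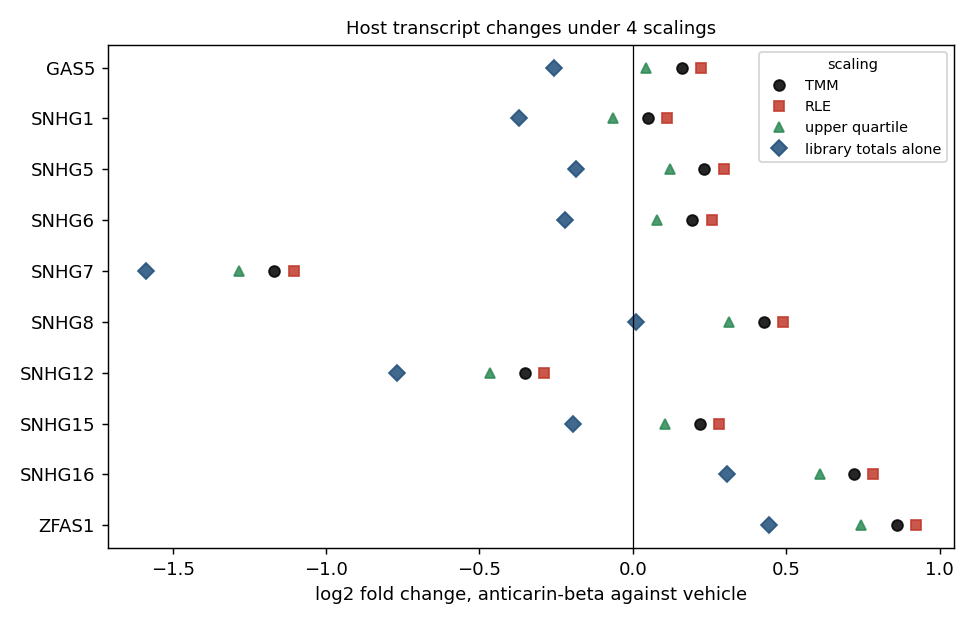
Log2 fold change with anticarin-beta against vehicle (horizontal axis) of each host transcript (rows) under TMM, RLE, upper-quartile and library-total scaling. SNHG7 stays between −1.59 and −1.11 and ZFAS1 between 0.44 and 0.92, while GAS5, SNHG1, SNHG5, SNHG6 and SNHG15 cross 0 under library totals alone.

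In the libraries labelled CCT4 siRNA, SNHG1 was lower and SNHG5 higher than with control siRNA, and the other 8 members were not called. The 2 calls of 10 compare with 19.7% of all tested genes (10.7% higher and 9.04% lower). The median log2 change over the 10 was −0.08, beside 0.01 over all genes tested.

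SNHG1 on chromosome 11 (62851988 to 62855914, minus strand) stood at 59.8, 66.5 and 57.3 CPM with control siRNA and at 43.2, 43.3 and 42.0 CPM in the libraries labelled CCT4 siRNA. The 2 groups were well separated, and the 3 labelled libraries were nearly equal. The mean of 3 libraries went from 61.2 ± 4.75 (SD) to 42.8 ± 0.729 CPM, a 1.43-fold fall (log2 −0.52 ± 0.09, adjusted p = 0.00261). SNHG1 lies head to head with SLC3A2, the gene of the heavy chain of amino acid transporters, with 188 bases between the starts. SLC3A2 did not fall with it: its level was 212.8 CPM against 171.2 CPM, not called (log2 0.31 ± 0.12, adjusted p = 0.0786). With anticarin-beta SLC3A2 rose 3.59-fold, from 205.0 to 735.3 CPM (log2 1.84 ± 0.12, adjusted p = 1.95e-08), where SNHG1 was at 46.3 and 47.9 CPM in the 2 groups.

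SNHG5 on chromosome 6 (85660950 to 85678748, minus strand) was at 68.9, 70.6 and 76.9 CPM with control siRNA and at 94.9, 92.1 and 90.8 CPM in the libraries labelled CCT4 siRNA. All labelled libraries were above all controls. The log2 change was 0.36 ± 0.10 (adjusted p = 0.0276). The call did not hold without control siRNA replicate 1 or 2 or without any 1 of the libraries labelled CCT4 siRNA, with log2 changes from 0.33 to 0.41 throughout. It was also lost under library totals alone (log2 0.23).

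Of the 8 members without a call, SNHG6 was higher and ZFAS1 lower in every labelled library than in every control. SNHG6 stood at 100.8 to 118.4 CPM with control siRNA and at 121.2 to 129.2 CPM in the labelled libraries (log2 0.22, adjusted p = 0.105). Counting the called pair, 2 members were higher and 2 lower without overlap, where 21.7% and 20.1% of all tested genes were. SNHG15 was at 16.9 to 21.5 and 11.1 to 18.5 CPM (log2 −0.47, adjusted p = 0.107), and was called without replicate 3 of the labelled libraries (log2 −0.69). GAS5 (log2 −0.07), SNHG7 (0.03), SNHG8 (−0.08) and SNHG12 (−0.09) had log2 changes near 0, with fold intervals of 0.841 to 1.08, 0.865 to 1.20, 0.756 to 1.18 and 0.772 to 1.15. SNHG16 had a log2 change of −0.54 with control siRNA replicate 1 in the comparison and 0.29 without it.

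The difference between the 2 responses was tested as anticarin-beta against vehicle minus labelled CCT4 siRNA against control siRNA, which share no library. Times differ, at 18 hours and 2 days. It was called for 5 of 10 members, 4 higher and 1 lower, where 59.9% of all tested genes were called (27.5% higher and 32.4% lower). The log2 difference was −1.20 for SNHG7 (adjusted p = 3.15e-05), 0.93 for ZFAS1 (adjusted p = 5.1e-06) and 0.56 for SNHG1 (adjusted p = 0.00244). SNHG15, at 0.69 (adjusted p = 0.0446), and SNHG8, at 0.51 (adjusted p = 0.0485), were just past the threshold. The first 3 kept their call when any 1 of the 12 libraries was left out. Under library totals alone the difference of SNHG1 was 0.28 and not called (adjusted p = 0.0962), as were those of SNHG15 (0.40) and SNHG8 (0.23), and the upper quartile ended the calls of SNHG15 (0.60) and SNHG8 (0.42). SNHG8 kept it only without vehicle replicate 2, anticarin-beta replicate 3 or control siRNA replicate 2, 3 of 12 omissions (log2 0.37 to 0.62 over all 12). SNHG15 kept it without those 3 or without replicate 3 of the libraries labelled CCT4 siRNA, 4 of 12 (log2 0.52 to 0.91).

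Most of the host transcripts were higher with control siRNA than with vehicle. With control siRNA against vehicle, 8 of 10 members were called, 7 higher and 1 lower, where 48.4% of all tested genes were called (24.8% higher and 23.6% lower). SNHG12 rose 2.08-fold, from 13.8 to 14.8 CPM with vehicle to 26.5 to 34.7 CPM with control siRNA (log2 1.06, adjusted p = 3.47e-05). GAS5 rose 1.88-fold, from 80.5 to 90.6 CPM to 149.3 to 178.8 CPM (log2 0.91, adjusted p = 2.27e-06). In both, no control siRNA library overlapped a vehicle library. The same held for all 8 called members, 7 higher and 1 lower without overlap, where 28.4% and 27.6% of all tested genes were.

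ZFAS1 was also higher with control siRNA than with vehicle, at 168.4 against 112.3 CPM (log2 0.59, adjusted p = 2.36e-05). The log2 change was 0.56 for SNHG15 (adjusted p = 0.0286), 0.41 for SNHG7 (adjusted p = 0.00794), 0.40 for SNHG1 (adjusted p = 0.00297) and 0.25 for SNHG6 (adjusted p = 0.0386). SNHG6 lost the call without vehicle replicate 1 or 3, control siRNA replicate 3, or replicate 1 or 2 labelled CCT4 siRNA (log2 down to 0.17), and also under upper-quartile scaling (log2 0.19, adjusted p = 0.103) and with the 2 groups fitted alone (log2 0.26, adjusted p = 0.068). SNHG15 lost it without vehicle replicate 1 or control siRNA replicate 1 or 3 (log2 down to 0.43). SNHG5 went the other way, at −0.43 (adjusted p = 0.00404). SNHG8 (log2 0.08, adjusted p = 0.679) and SNHG16 (log2 0.32, adjusted p = 0.654) were not called. Transfection, time in culture and any batch between the 2 experiments cannot be told apart in this comparison.

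Across the 12 libraries the members did not share 1 profile. Correlated with the mean of the other 9 after standardizing log2 CPM, GAS5 had a Pearson r of 0.60, ZFAS1 0.54, SNHG15 0.50, SNHG6 0.49 and SNHG12 0.47. SNHG1 had 0.22, SNHG8 0.14, SNHG16 0.06, SNHG7 −0.01 and SNHG5 −0.51. The points share libraries and the 4 groups, so these values mostly restate group means. Among genes that averaged 5 CPM or more, those most like the mean profile of the members were SIRT6 (r = 0.937), PEAR1 (0.911), TC2N (0.909), BIN3 (0.903) and ATXN7L3 (0.899), over the same 12 libraries.

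Other host genes of snoRNAs also moved both ways with anticarin-beta, as did all tested genes (34.9% higher and 38.0% lower). Of 13 tested among 15 other non-coding hosts, 3 rose and 3 fell, the median log2 change being 0.07. DANCR, host of SNORA26, rose from 33.8 to 101.3 CPM (log2 1.58 ± 0.17, adjusted p = 3.12e-06). SNHG10 rose by less (log2 0.69), while SNHG4 (log2 −0.92) and SNHG11 (log2 −1.11) fell. Under library totals alone the split was 1 higher and 7 lower, and under the same scale DANCR had a log2 change of 1.16.

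Among 18 protein-coding hosts outside the ribosome, 9 were higher and 5 lower (median log2 0.26), against 6 and 8 under library totals alone. Over all tested genes 34.9% were higher and 38.0% lower under TMM. TAF1D, a subunit of the factor that starts ribosomal RNA transcription, rose 2.83-fold, from 49.5 to 139.8 CPM (adjusted p = 1.18e-08). NOP56, a core snoRNA-binding protein (log2 1.56), and TPT1, a growth-linked protein whose mRNA starts with a pyrimidine run (log2 1.18), were higher as well. HSPA8, the constitutive heat shock cognate chaperone, fell from 1276 to 313.1 CPM (log2 −2.03 ± 0.13, adjusted p = 1.44e-08). Each of these 4 kept its direction under the 4 scalings.

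Ribosomal protein genes showed small changes in both directions with the compound and mostly rises in the libraries labelled CCT4 siRNA. Of 23 ribosomal protein genes that host snoRNAs, 7 were higher and 5 lower with anticarin-beta (median log2 0.09), but 1 and 15 under library totals alone, 6 and 8 under the upper quartile. RPL21 (log2 0.80) and RPSA (log2 0.59) rose, and RPL13A (log2 −0.47) fell. Of 48 other ribosomal protein genes, 22 were higher and 10 lower (median log2 0.20), but 3 and 25 under library totals alone and 13 and 11 under the upper quartile. RPS16 (log2 0.94), RPL38 (log2 0.52) and RPS9 (log2 0.51) were among those that rose. The direction of these families with the compound thus turned with the scale.

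In the libraries labelled CCT4 siRNA, 17 of the 23 ribosomal protein hosts were higher and the other 6 were not called (median log2 0.45). Over all tested genes 10.7% were higher and 9.04% lower. The calls included RPL5 (307.0 to 448.1 CPM, log2 0.55), RPL13A (log2 0.53), RPL27A (log2 0.46) and RPL30 (log2 0.45). Of the 48 others, 32 were higher and 16 not called (median log2 0.34), among them RPL24 (log2 0.53) and RPS14 (log2 0.43). Under library totals alone 12 and 16 were called, all higher. Set beside these genes, whose mRNAs also start with pyrimidine runs, the 10 non-coding hosts had a median of −0.08 and 1 call in each direction; this contrast between lists was not tested.

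Among 18 protein-coding hosts outside the ribosome, 5 were higher and 13 not called in the same comparison (median log2 0.18). Library totals alone gave 2 higher and 1 lower. Over all tested genes 10.7% were higher and 9.04% lower under TMM. EEF2, the elongation factor that moves the ribosome, rose from 1248 to 1761 CPM (log2 0.50 ± 0.06, adjusted p = 1.23e-04). SNRPB (log2 0.74), TPT1 (0.42) and RACK1 (0.28) were also higher. SNHG4 (20.7 to 11.6 CPM, log2 −0.84 ± 0.13, adjusted p = 0.00126) was the single call among the 13 other non-coding hosts, and 3 were lower under library totals alone.

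**Figure D5:**
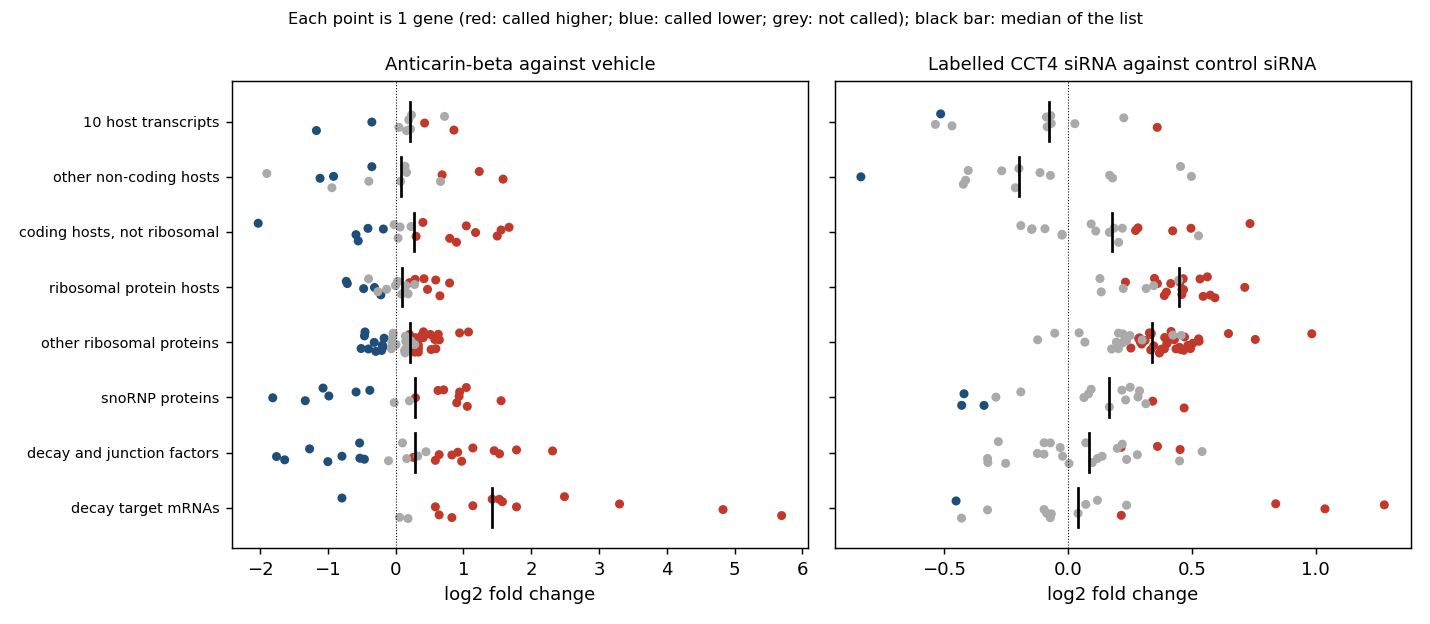
Log2 fold change (horizontal axis) of every tested gene in 8 lists (rows), for anticarin-beta against vehicle (left) and the libraries labelled CCT4 siRNA against control siRNA (right); colour marks the call and the black bar the list's median. On the left the decay target mRNAs have a median of 1.42 while the 10 host transcripts have 0.21; on the right the ribosomal protein hosts have a median of 0.45 while the 10 host transcripts have −0.08.

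Genes of the decay pathway itself moved both ways with anticarin-beta, as did all tested genes (34.9% higher and 38.0% lower). Of 24 NMD and exon junction factors, 11 were higher and 8 lower (median log2 0.29), against 9 and 11 under library totals alone. DCP1A, a decapping activator, rose from 23.5 to 116.9 CPM (log2 2.31 ± 0.07, adjusted p = 1.98e-11). SMG1, the kinase that activates UPF1, rose from 213.7 to 735.5 CPM (log2 1.78 ± 0.10), and XRN1, the 5′ to 3′ exonuclease, rose too (log2 1.45). SMG9, a partner of the SMG1 kinase, fell from 58.6 to 17.4 CPM (log2 −1.76 ± 0.09). In the libraries labelled CCT4 siRNA, EIF4A3 (log2 0.36), MAGOH (log2 0.45) and DCP1A (log2 0.21) were higher and the other 21 not called. Under library totals alone 4 were lower and the other 20 not called. Over all tested genes 10.7% were higher and 9.04% lower in this comparison under TMM.

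Most protein-coding mRNAs listed as NMD targets rose with the compound, and several of them are also known as stress-response genes. Of 15, 12 were higher and 1 lower with anticarin-beta (median log2 1.42), and 11 and 2 under library totals alone. Over all tested genes 34.9% were higher and 38.0% lower under TMM. GADD45A, a stress-induced growth arrest gene, rose from 16.6 to 471.0 CPM (log2 4.83 ± 0.11, adjusted p = 5.96e-12). GADD45B (log2 3.30), UPP1 (log2 2.49) and the stress transcription factor ATF4 (log2 1.42) were higher too. The list includes factors such as SMG1, UPF1 and UPF2 that are counted above as well, and the difference between this list and the 10 host transcripts was not tested.

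In the libraries labelled CCT4 siRNA, 4 of these 15 mRNAs were higher and 1 lower (median log2 0.04). Over all tested genes 10.7% were higher and 9.04% lower. GADD45A rose from 48.3 to 99.3 CPM (log2 1.04 ± 0.10, adjusted p = 3.6e-05). GADD45B (log2 0.84) and ATF3 (log2 1.28) were higher and TBL2 was lower (log2 −0.45).

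The proteins that package and assemble snoRNAs were likewise split, as were all tested genes with anticarin-beta (34.9% higher and 38.0% lower). Of 17, 9 were higher and 6 lower with anticarin-beta (median log2 0.29), and 6 and 7 under library totals alone. NOP56 (log2 1.56) and NOP10 (log2 1.06), core proteins of the C/D-box and H/ACA particles, rose. The assembly factors RUVBL1 (log2 −1.33) and ZNHIT3 (log2 −1.81) fell. In the libraries labelled CCT4 siRNA 2 were higher, NHP2 (log2 0.47) and NOP10 (log2 0.34). In the same comparison 3 were lower, among them RPAP3 (log2 −0.42) and ZNHIT6 (log2 −0.34). Over all tested genes 10.7% were higher and 9.04% lower there.

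Next to GAS5, 800 bases from its start on the opposite strand, lies ZBTB37, a zinc finger gene. ZBTB37 was at 24.5, 29.7 and 42.7 CPM with vehicle and at 8.05, 4.99 and 3.10 CPM with anticarin-beta, 5.99-fold lower (log2 −2.58 ± 0.29, adjusted p = 4.03e-06). GAS5, over the same libraries, was 1.12-fold higher and not called. AC015802.4, an antisense gene that starts 83 bases from SNHG16, was lower as well but scarcely expressed, at 0.173 CPM against 1.145 CPM. Of the 4 head-to-head neighbours, 2 were thus higher and 2 lower with the compound, and the 4 hosts did not follow them except ZFAS1.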

How the data were processed

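RNA of 12 MG63 libraries was measured by sequencing. The authors deposited raw counts per gene for 50868 genes in 1 table, neither normalized nor pooled. The tools named per the submitters' processing notes are Subread with featureCounts 1.5.0, and STAR 2.5.2a, on hg38. The sources used here do not name the annotation release, the strand option or the treatment of multi-mapped reads, so overlapping genes are marked as uncertain. Groups and replicate numbers come from the labels.

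Members, gene lists, tests and the naming rule were all chosen with earlier results of these data known. That rule took all 10 members, up to 4 genes per list with the smallest p, the nearest head-to-head neighbour within 1000 bases, and the 5 genes most like the mean profile of the members. Some genes chosen this way are not reported here.

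Counts were fitted with edgeR 4.0.16 in R 4.3.3 (TMM scaling, filterByExpr, 1 mean per group over 12 libraries, 8 residual degrees of freedom, two-sided quasi-likelihood test, Benjamini-Hochberg adjustment over 17717 genes, call under 0.05). Each standard error is the log2 change over the root of its F, and 95% intervals from a t distribution on the degrees of freedom that edgeR fitted. Totals per library were 13393750 to 17492095 counts, and 3 counts, the floor, equal 0.160 to 0.277 CPM. Intervals and floors cover counting error or the spread of these libraries only. Counts of replicate pairs within a group differed beyond sampling noise (chi-square divided by its degrees of freedom, 8.48 to 26.5).

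Positions and exon overlaps are from GENCODE 29, which held 98.5% of the gene identifiers. Promoters are from RefSeq. Other settings tried were scaling by RLE, by the upper quartile or by library totals, the tools DESeq2 1.42.0 and limma-voom (limma 3.58.1), other low-count filters, the 2 groups alone, a replicate block, a threshold of 0.01 and the omission of each library. Counts were also simulated for all 12 libraries, with few genes changed and only in 1 group, and fitted as 4 groups. For the compound comparison (17278 genes) the edgeR test recovered 29.9% of 67 genes changed 1.5-fold and 89.6% of 67 changed 2-fold. For the siRNA comparison (17246 genes) it recovered 32.8% and 86.6% of 67. In the measured counts 73.0% and 19.7% of tested genes were called, so these shares need not hold there.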

Additional observations from a re-analysis of the deposited data

Results flagged for a closer look

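For 5 of the 10 host transcripts the response to anticarin-beta differed from the response in the libraries labelled CCT4 siRNA, by a test of the difference itself in edgeR's quasi-likelihood fit with Benjamini-Hochberg adjustment. SNHG7 fell with the compound and was not called in the labelled libraries, a log2 difference of −1.20 (adjusted p = 3.15e-05). ZFAS1 rose with the compound and was not called in the labelled libraries, a log2 difference of 0.93 (adjusted p = 5.1e-06). SNHG1, lower in the labelled libraries and not called with the compound, had a log2 difference of 0.56 (adjusted p = 0.00244), which was 0.28 and not called under library totals alone (adjusted p = 0.0962). SNHG15 (log2 difference 0.69, adjusted p = 0.0446) and SNHG8 (log2 difference 0.51, adjusted p = 0.0485) were just past the threshold and kept the call in 4 and 3 of the 12 omissions of a library. The times (18 hours and 2 days) and delivery of the 2 treatments differ, and their part in these differences cannot be told apart. The part of FAM69B, which overlaps SNHG7 and fell with it, was not tested.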

How the results depend on the processing

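SNHG7 and ZFAS1 with anticarin-beta, and SNHG1 with the libraries labelled CCT4 siRNA, were called in the same direction under every alternative run. For anticarin-beta against vehicle the members called higher and lower were 5 and 1 under RLE scaling and DESeq2, 1 and 2 under the upper quartile, 1 and 5 under library totals alone, 3 and 1 with limma-voom, and 2 and 1 with the 2 groups alone; at a threshold of 0.01 there were 2, 1 each way. The median turned to −0.21 under library totals alone, as did GAS5 (−0.26), SNHG1 (−0.37, and −0.064 under the upper quartile), SNHG5 (−0.19), SNHG6 (−0.22) and SNHG15 (−0.20), a scale that moved the median of all genes to −0.48. For the siRNA comparison library totals alone gave 0 higher and 2 lower in edgeR (0 and 4 at an unadjusted p under 0.05), a threshold of 0.01 gave 1 call and 0 higher, and SNHG7 turned to −0.10 under library totals alone. For the difference the upper quartile and the threshold of 0.01 gave 3 calls with 2 higher, and library totals alone gave 1 higher and 4 lower. SNHG6 turned to 0.0396 under RLE scaling and 0.0402 with DESeq2, and GAS5 to −0.058 under library totals alone.

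Leaving out each library gave 2 to 5 calls (1 to 3 higher, 1 to 2 lower) for the compound, 1 to 2 (0 to 1 higher, 1 to 2 lower) for the siRNA comparison, 3 to 5 (2 to 4 higher) for the difference and 6 to 8 for control siRNA against vehicle. Values that turned over these omissions ranged, for the compound, from −0.061 to 0.107 (SNHG1) and −0.13 to 1.12 (SNHG16). In the siRNA comparison the ranges were −0.13 to 0.0002 (GAS5), −0.052 to 0.131 (SNHG7), −0.188 to 0.0504 (SNHG8), −0.163 to 0.0501 (SNHG12) and −0.85 to 0.29 (SNHG16). The difference of SNHG6 ranged from −0.117 to 0.0334, and control siRNA against vehicle from −0.0548 to 0.184 (SNHG8) and −0.51 to 0.72 (SNHG16). Same-numbered replicates did not deviate together (correlations from −0.03 to 0.03). With a replicate block 3 members were higher and 2 lower with anticarin-beta, SNHG5 being gained (0.25, adjusted p = 0.0348), and the siRNA counts were 1 and 1; the difference of SNHG8 was lost (0.50, adjusted p = 0.0581). On simulated counts of this depth with few genes changed, 29.9% and 32.8% of changes of 1.5-fold were recovered.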

Other observations

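Between the 2 control groups most ribosomal protein genes were lower, whereas most of the 10 non-coding hosts were higher; the difference between the lists was not tested. With control siRNA against vehicle, 18 of the 23 ribosomal protein genes that host snoRNAs were lower and the other 5 were not called (median log2 −0.46), where 23.6% of all tested genes were lower. RPL5 was at 307.0 CPM against 548.6 CPM (log2 −0.84 ± 0.07) and RPSA at 230.9 CPM against 379.2 CPM (log2 −0.72 ± 0.08). Of 48 other ribosomal protein genes 31 were lower and 2 higher (median log2 −0.36), among them RPLP0 (log2 −1.17) and RPS4X (log2 −0.65). The 10 host transcripts had a median of 0.41, with 7 called higher. Under library totals alone 15 ribosomal protein hosts and 30 other ribosomal protein genes were lower, and 7 host transcripts higher.

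Of the 15 mRNAs known as NMD targets, 10 were higher and 1 lower with control siRNA against vehicle (median log2 0.50). Over all tested genes 24.8% were higher and 23.6% lower. UPP1, an enzyme of uridine salvage, was at 43.1 CPM against 4.29 CPM (log2 3.33 ± 0.10), GADD45A was higher (log2 1.54) and SLC7A11, the cystine transporter, was lower (log2 −1.36). DANCR, a non-coding host, was lower as well (log2 −1.33 ± 0.18), opposite to GAS5 and SNHG12. These controls differ in transfection, time and any batch, which cannot be told apart.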
